A study of Mus musculus with 9 samples.

Results

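Hearts given cardiovascular progenitor cells were compared with hearts given culture medium, 6 weeks after treatment. The comparison rests on 5 of the 9 arrays of the study: the 3 whose titles name cells, called cell arrays 1 to 3, and the 2 whose titles name the medium control, called control arrays 1 and 2. All the hearts came from immunodeficient nude mice whose left anterior descending artery had been tied off for good. Mice entered the study in chronic heart failure 3 weeks later, if the ejection fraction had dropped below 50%. Cell-treated mice received 500000 cells, injected through the closed chest under ultrasound guidance at 3 sites around the infarct, 10 µL at each, and control mice received alpha-MEM. The labels give neither the species and source of the cells nor the sex and age of the mice, and do not say whether each array is a separate animal, so p-values measure only the spread between these arrays. The titles place cell array 1 and control array 1 in experiment 9, and cell arrays 2 and 3 and control array 2 in experiment 1. They also carry a VTS number of unstated meaning, which is 3 for the arrays of experiment 9, 1 for control array 2 and cell array 2, and 2 for cell array 3, so cell array 3 has no control with its own VTS number. The other arrays are 3 of hearts given vesicles from the same kind of cell and 1 of a sham heart pricked with the needle alone. Their values are shown beside the members. The 3 vesicle arrays also entered the fit, where they shape the experiment block, the fitted differences and their spread. All 9 arrays set which genes are called bright.

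Whole hearts hold muscle cells, fibroblasts, vessel cells and immune cells together, and their RNA is an average over all of them, so fewer cells of a type and less RNA per cell cannot be told apart. Injected progenitor cells are studied in the infarcted heart mainly for the signals they release, since few of them usually remain. Several gene groups named here answer within hours. Immediate early genes, many of which encode transcription factors, are switched on without new protein, through growth factor, calcium or stress signals. Genes of the circadian clock swing over each day in heart muscle, with the Clock and Bmal1 pair driving the genes for Dbp, Tef, the Rev-erb receptors and the Per proteins.

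The values are log2 expression on gene arrays, so a difference of 1 is a doubling. Of 30142 genes with a name of their own, 6667 (22.1%) had a mean over the 9 arrays above 7.22, the level below which 95% of the negative control probe sets lay, and are called bright. Single arrays of a bright gene can lie below 7.22, and its high arrays help it pass. Among the genes named below, Atf3, Adamts1, Timp4, Ddit4, Sln, Igtp, Iigp1 and Csprs, among others, read below it on a control array. Array medians lay between 4.89 and 4.92. All 19 measured genes of the heart muscle list were bright, and Myh6, the main myosin heavy chain of the adult mouse ventricle, lay at 12.85 to 12.91 on the 5 arrays. No member of the lists for T and NK cells (17 measured), B cells (13), granulocytes (17) or red cells and platelets (7) was bright. Surfactant gene Sftpc, a lung marker, stood at 4.28 to 4.52 on the 5 arrays and at 9.75 on vesicle array 3. Xist lay at 3.92 to 3.97 on the 5 arrays, and the Y-linked gene Uty at 6.46 on control array 1 against 6.98 to 7.17 on the other 4 of them.

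The promoters of 4 genes are shown because they hold a response element known for early response or clock genes: Nr4a1 and Errfi1, which lay above control, and Tef and Bhlhe41, which lay below it in experiment 1. Each is the 250 bases before a RefSeq start site in build GRCm38.p6, matched to the array by gene symbol and written 5′ to 3′ along the gene. In the first pair capitals mark the half-site of the cAMP response element, TGACG on either strand, which binds the CREB and Atf factors. In the second pair they mark the E-box, CACGTG, which binds Clock with its partner.
Nr4a1, chr15:101266596-101266845, plus strand: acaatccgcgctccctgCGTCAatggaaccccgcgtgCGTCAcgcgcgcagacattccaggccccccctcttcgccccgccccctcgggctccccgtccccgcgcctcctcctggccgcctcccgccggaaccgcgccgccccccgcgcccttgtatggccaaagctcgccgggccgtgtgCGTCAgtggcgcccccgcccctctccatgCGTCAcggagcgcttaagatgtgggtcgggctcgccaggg
Errfi1, chr4:150854820-150855069, plus strand: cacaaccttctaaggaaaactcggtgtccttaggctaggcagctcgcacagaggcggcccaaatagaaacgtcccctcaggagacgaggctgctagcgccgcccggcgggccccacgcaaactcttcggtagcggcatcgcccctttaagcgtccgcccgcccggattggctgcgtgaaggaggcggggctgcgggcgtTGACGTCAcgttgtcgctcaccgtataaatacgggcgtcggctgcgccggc
Tef, chr15:81811164-81811413, plus strand: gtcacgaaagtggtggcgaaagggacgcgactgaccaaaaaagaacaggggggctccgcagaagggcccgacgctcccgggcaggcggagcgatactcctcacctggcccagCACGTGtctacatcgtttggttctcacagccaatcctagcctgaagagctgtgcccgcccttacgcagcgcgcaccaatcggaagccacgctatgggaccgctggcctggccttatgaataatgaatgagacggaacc
Bhlhe41, chr6:145865421-145865670, minus strand: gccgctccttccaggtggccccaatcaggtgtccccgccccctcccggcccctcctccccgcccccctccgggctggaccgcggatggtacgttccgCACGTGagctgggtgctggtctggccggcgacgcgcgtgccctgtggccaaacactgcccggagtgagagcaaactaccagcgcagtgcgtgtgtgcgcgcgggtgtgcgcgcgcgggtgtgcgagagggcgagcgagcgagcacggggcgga
Nr4a1 held 4 half-sites, which begin at −233, −213, −69 and −40 counted from its start. In Errfi1, at the second of 2 RefSeq start sites, a pair of half-sites overlapped in the full palindrome TGACGTCA at −51; the first start site held none. Tef had an E-box before each of 2 start sites, the one printed at −138, and Bhlhe41 had its E-box at −153. A half-site was found in 17.8% of all 32851 promoters, in 28.1% of those of bright genes in 58.3% of the 12 promoters matched for the bright immediate early genes, and in 32.3% of the 31 matched for the named genes with a concordant shift on the higher side, which are defined below and include Errfi1. The full palindrome was in 1.55% of all promoters and 2.66% of those of bright genes. An E-box was in 6.02% of all promoters, in 8.44% of those of bright genes, in 33.3% of the 12 promoters matched for the bright clock genes and in 25% of those of the immediate early genes. The D-box TTATGTAA, to which Dbp and Tef bind, was searched in the same way and occurred in 0.819% of all promoters and in 0 of those 12. Of the 10 bright clock genes, 8 had a matched promoter, and only Bhlhe41, Per1 and Tef gave an E-box. Dbp, Nr1d1 and Nr1d2 either held none in this stretch or had no promoter matched. A match says only that the letters are there.

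No gene passed the test between cell and control hearts. Limma, fitted to the 8 arrays of injected hearts with the experiment as a block, found 0 of 30142 genes (0%) past an adjusted p of 0.05, the smallest being 0.479. At an unadjusted p under 0.05 there were 506 genes on the higher side (1.68%) and 1523 on the lower side (5.05%). This split followed the scaling: with arrays centred on their medians it was 1021 higher and 556 lower, and after quantile normalization 588 and 914. Among bright genes 224 (3.36%) had such a p on the higher side and 59 (0.885%) on the lower side. Of the bright genes, 66.5% had a fitted difference above 0, with a median of 0.020, but that median was −0.005 after quantile normalization and 0.050 after centring. With control array 1 left out, 207 genes were called higher and 694 lower, in a fit where the lone control array borrows its spread from the treated groups; with control array 2 left out none was called.

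The shares of bright genes with a wide gap between cell and control arrays lay within the range of same-group pairs, 2.2% to 5.95%. The upper end is cell array 2 against cell array 3, so this range is not independent of the cell arrays. The other same-group pairs, at 2.2% and 4.6%, lay below the 5.74% of cell array 3 against control array 2. Cell array 1 differed from control array 1 by at least 0.3, or 1.23-fold, in 3.49% of bright genes, cell array 2 from control array 2 in 3.13% and cell array 3 from control array 2 in 5.74%. Cell arrays 2 and 3, which had the same treatment in the same experiment, differed from each other by as much in 5.95% of bright genes, and control arrays 1 and 2 in 4.6%. Vesicle arrays 2 and 3, of the same experiment too, differed in 2.2%, less than any cell array from its control. The sham array, which had neither cells nor medium, differed from control array 1 in 4.83%.

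**Figure D1:**
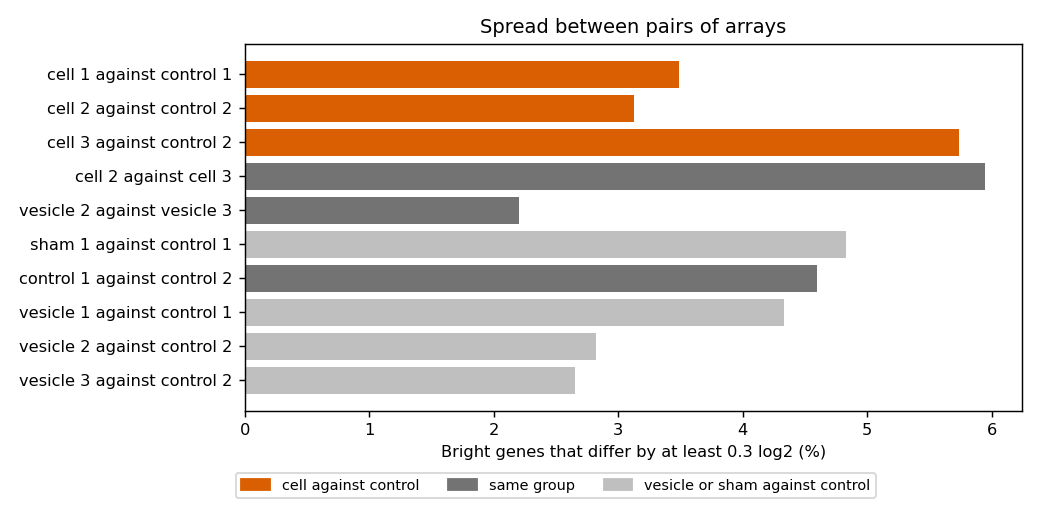
Share of the 6667 bright genes that differ by at least 0.3 on the log2 scale between pairs of arrays (horizontal axis, percent). The bars for cell against control, 3.13% to 5.74%, lie within the range of the pairs of the same group, 2.2% to 5.95%. The 5.95% is cell array 2 against cell array 3, and the other pairs of the same group are at 2.2% and 4.6%.

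The experiments also differed from each other. Over the 6667 bright genes, the difference in experiment 9 and the mean difference in experiment 1, which use separate control arrays, had a Pearson correlation of −0.23 and a Spearman correlation of −0.21, given as a description, since genes on the same arrays share background and scaling. In experiment 9, 198 bright genes (2.97%) stood at least 0.3 above control and 35 (0.525%) as far below. In experiment 1, where both cell arrays had to pass, 66 (0.99%) stood above and 24 (0.36%) below. Both experiments shared 8 genes on the higher side (0.12%), which is 4.04% of the list of experiment 9 and 12.1% of that of experiment 1, and 0 on the lower side. In 5 bright genes (0.075%) they went opposite ways by as much. Limma's test of the difference between the experiments called 0 genes, but it cannot settle how far they differ. Its spread came only from the cell arrays and the vesicle arrays of experiment 1. No control array and no array of experiment 9 added to that spread, and identical values on several arrays narrow it further. No conclusion is therefore drawn from its p-values.

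**Figure D2:**
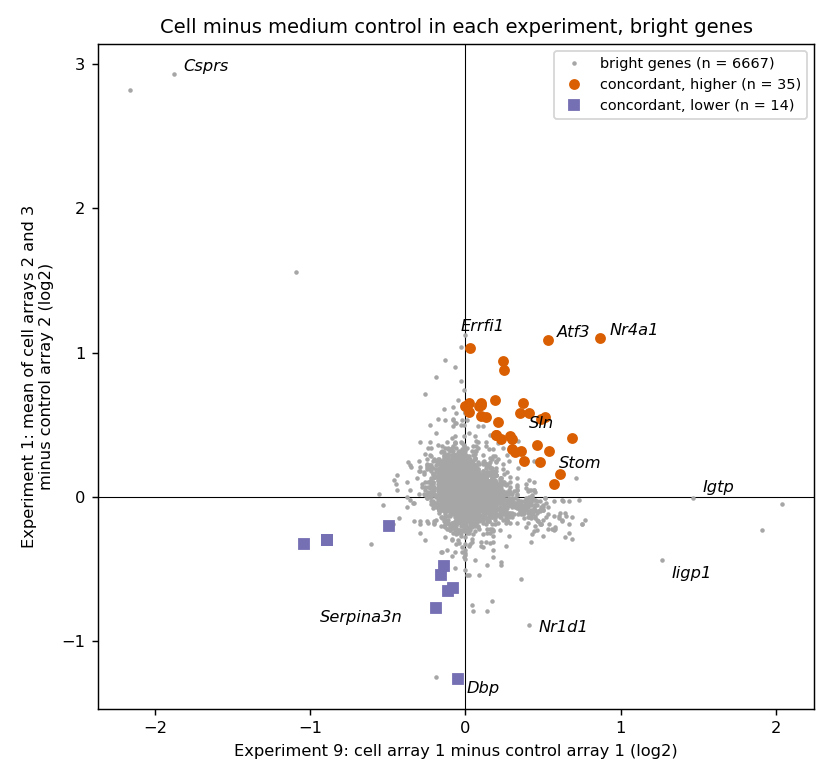
Difference of cell from control array in experiment 9 (horizontal axis) against the mean difference of cell arrays 2 and 3 from control array 2 in experiment 1 (vertical axis), both on the log2 scale, for each bright gene. Orange circles (35) and violet squares (14) are the concordant genes, and Csprs, Igtp, Iigp1 and Nr1d1 lie away from the cloud in 1 experiment or with opposite signs.

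A shift was called concordant where all 3 cell arrays lay on the same side of the control array of their own experiment and the mean of the experiments' differences was at least 0.3. On the higher side 35 bright genes met this (0.525%) and on the lower side 14 (0.21%), of which 31 and 6 have names of their own and the rest are gene models and small RNAs. Just inside the threshold lay Tfrc at 0.305 and Bhlhe41 at −0.307, and just outside it Adam19 at 0.298, Efemp1 at 0.297 and Fosl2 at 0.294. Cell array 3 had the widest gap in 21 of the 35 higher genes. Of the named genes, 17 of the 31 higher and 3 of the 6 lower had cell arrays that did not overlap with either control array, a pattern seen in 4.96% of all bright genes on the higher side and in 2.11% on the lower side. The rule itself favours such genes, so these counts describe the members and test nothing.

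Of the 35 concordant genes on the higher side 5 are on the immediate early list. They are Nr4a1, Atf3, Egr1, Klf6 and Ccn1, the last described with the matrix genes below. Nr4a1 and Atf3 had the largest shifts of the named genes. Nr4a1, an orphan nuclear receptor, read 7.67 and 8.42 on control arrays 1 and 2 and 8.53, 8.95 and 10.07 on cell arrays 1, 2 and 3. The groups did not overlap, but vesicle arrays, at 8.63, 8.86 and 8.71, lay within the range of the cell arrays, and the sham array at 7.82 lay near control array 1. The fitted difference was 1.04 ± 0.38 (3 cell and 2 control arrays; SE from the fit of 8 arrays, vesicle arrays included), or 2.06-fold (limma adjusted p = 0.682). Without cell array 3 it was 0.70. Atf3, a stress-induced factor of the Atf and CREB family, read 6.70 and 6.92 on the controls and 7.23, 7.46 and 8.55 on the cell arrays, a difference of 0.88 ± 0.36 that was 0.53 without cell array 3. Egr1, a zinc finger factor, read 7.73 and 8.10 on the controls and 8.10, 8.46 and 9.04 on the cell arrays, so cell array 1 was level with control array 2, and its difference of 0.55 ± 0.20 was 0.36 without cell array 3. Klf6, a Krüppel-like factor, had a narrower range, 8.39 and 8.46 against 8.68, 8.77 and 8.99, with the sham array inside the cell range at 8.76.

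Other concordant genes on the higher side encode regulators of signalling, which come from several lists and were not tested as a group. Spry4, a Sprouty protein that restrains receptor tyrosine kinase signalling to ERK, read 7.26 and 7.48 on the controls and 7.76, 7.90 and 8.16 on the cell arrays. This difference of 0.54 ± 0.085 (limma unadjusted p = 0.0013, adjusted p = 0.682) stayed between 0.46 and 0.59 when any 1 of the 5 arrays was left out. Errfi1, a feedback inhibitor of the EGF receptor, was even between groups in experiment 9, with 7.47 on the control and 7.50 on the cell array, and apart in experiment 1, with 7.56 against 8.15 and 9.05. Its difference of 0.63 ± 0.35 was 0.31 without cell array 3 and also without control array 2. Irs2, an adaptor of the insulin receptor, read 8.53 and 8.72 on the controls, 8.77 and 9.09 on cell arrays 1 and 2 and 10.21 on cell array 3. Its difference of 0.67 ± 0.39 was 0.31 without cell array 3. Sik1, a salt-inducible kinase, gave 8.66 and 8.79 on the controls against 8.76, 9.01 and 9.69. Rcan1, an inhibitor of calcineurin, read 9.35 and 10.08 on the controls and 9.58, 10.40 and 10.57 on the cell arrays, where the experiments differ more than the groups. Ddit4, an inhibitor of mTOR complex 1, read 7.00 and 7.15 on the controls, 7.09, 7.61 and 7.95 on the cell arrays and 7.80 on the sham array.

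**Figure D3:**
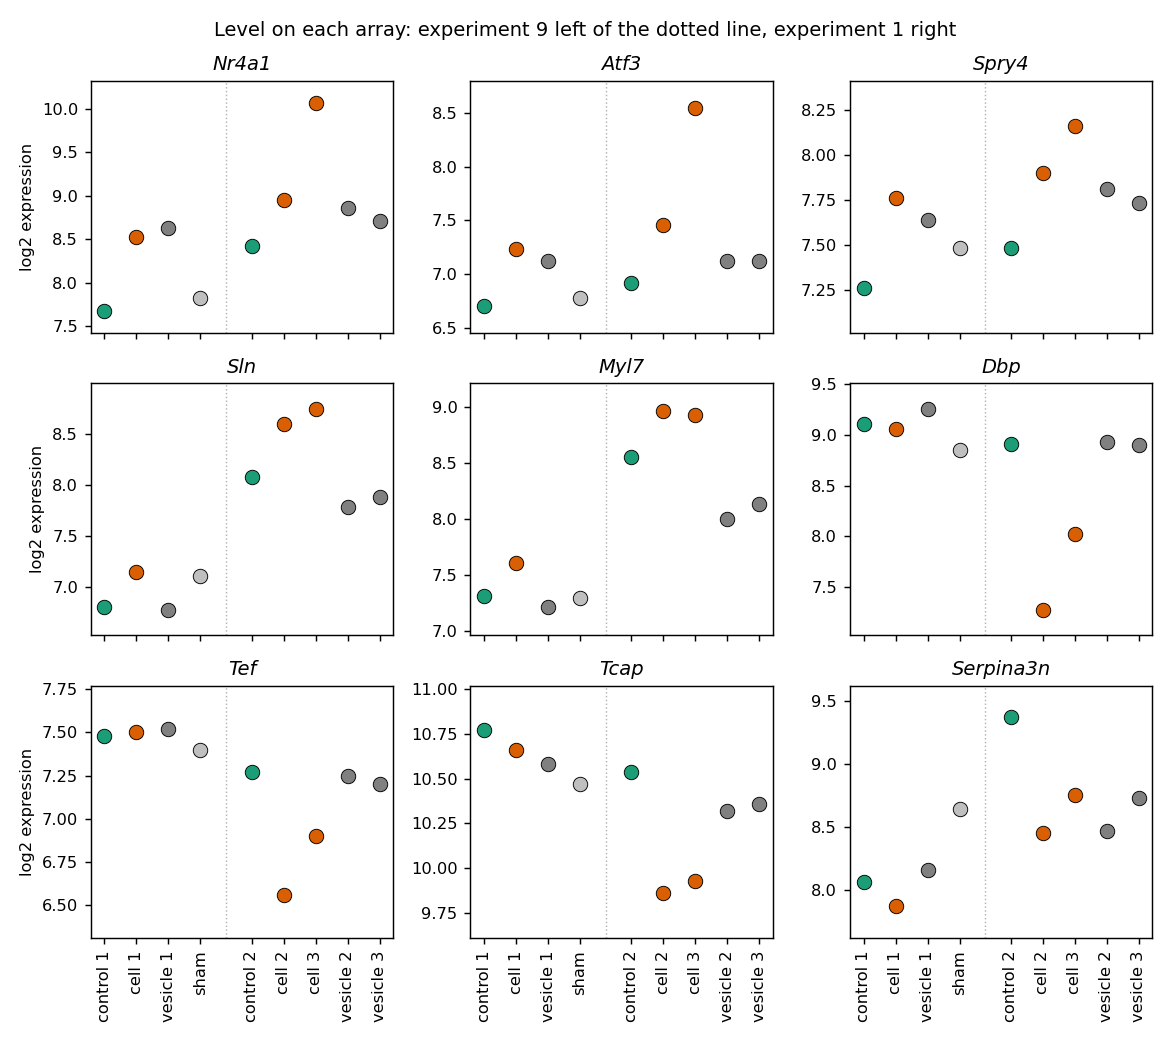
Log2 expression (vertical axis, a separate scale for each gene) of 9 genes on each of the 9 arrays (horizontal axis), with control arrays in green, cell arrays in orange, vesicle arrays in dark grey and the sham array in light grey. Nr4a1, Atf3 and Spry4 lie above their control on all 3 cell arrays, Sln and Myl7 do so within experiments that differ in level, and Dbp and Tef are low on cell arrays 2 and 3 only.

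Among genes of the matrix, vessels and cytoskeleton, Ccn1, a matricellular protein and target of the YAP pathway, read 9.31 and 9.97 on the controls and 9.99, 10.12 and 10.63 on the cell arrays, with the sham array at 10.07. Adamts1, a metalloprotease that cuts proteoglycans, read 7.07 and 7.57 on the controls and 7.56, 7.96 and 8.27 on the cell arrays. Timp4, an inhibitor of matrix metalloproteinases, read 6.95 and 7.31 against 7.43, 7.57 and 7.53, and the sham array, at 8.14, was above all of them. S1pr1, the sphingosine 1-phosphate receptor of endothelium, read 7.37 and 7.46 on the controls and 7.58, 7.93 and 8.02 on the cell arrays, a difference of 0.40 ± 0.099. Abra, which links actin to gene control by the factor SRF in striated muscle, read 8.81 and 9.21 on the controls and 9.06, 9.91 and 10.28 on the cell arrays. Stom, the membrane protein stomatin, was led by experiment 9, at 8.62 and 8.78 on the controls and 9.16, 9.20 and 9.01 on the cell arrays (0.42 ± 0.089). Epha4, an ephrin receptor, read 7.56 and 7.29 on the controls and 7.92, 7.71 and 7.52 on the cell arrays.

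Carriers and metabolic genes made up much of the remainder. Slc12a2, the sodium, potassium and chloride cotransporter, lay 0.46, 0.31 and 0.42 above control on cell arrays 1, 2 and 3, but vesicle array 2, at 8.74, was above all cell arrays and the standard error was 0.37. Tfrc, the transferrin receptor, lay 0.02, 0.48 and 0.70 above control, and Slc41a3, a magnesium transporter, 0.30, 0.44 and 0.22. Clybl, a mitochondrial enzyme, lay 0.13, 0.52 and 0.59 above control. The mitochondrial lysine tRNA mt-Tk read 9.60 and 9.33 on the controls and 9.79, 10.17 and 9.83 on the cell arrays, with 10.35 on the sham array. Ifi204 and Ifi207, interferon-inducible genes of one family in the mouse, gave gaps of 0.02, 0.71 and 0.59 and of 0.00 (above 0 before rounding), 0.71 and 0.56. Such near copies may share probes, so these count as uncertain. Abhd2, Depp1, Fam78a, Mid1 and Tmem181a had fitted differences between 0.29 and 0.52. Together with Sln and Myl7, which also met the rule and are described with the muscle genes below, they complete the named genes on the higher side.

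**Figure D4:**
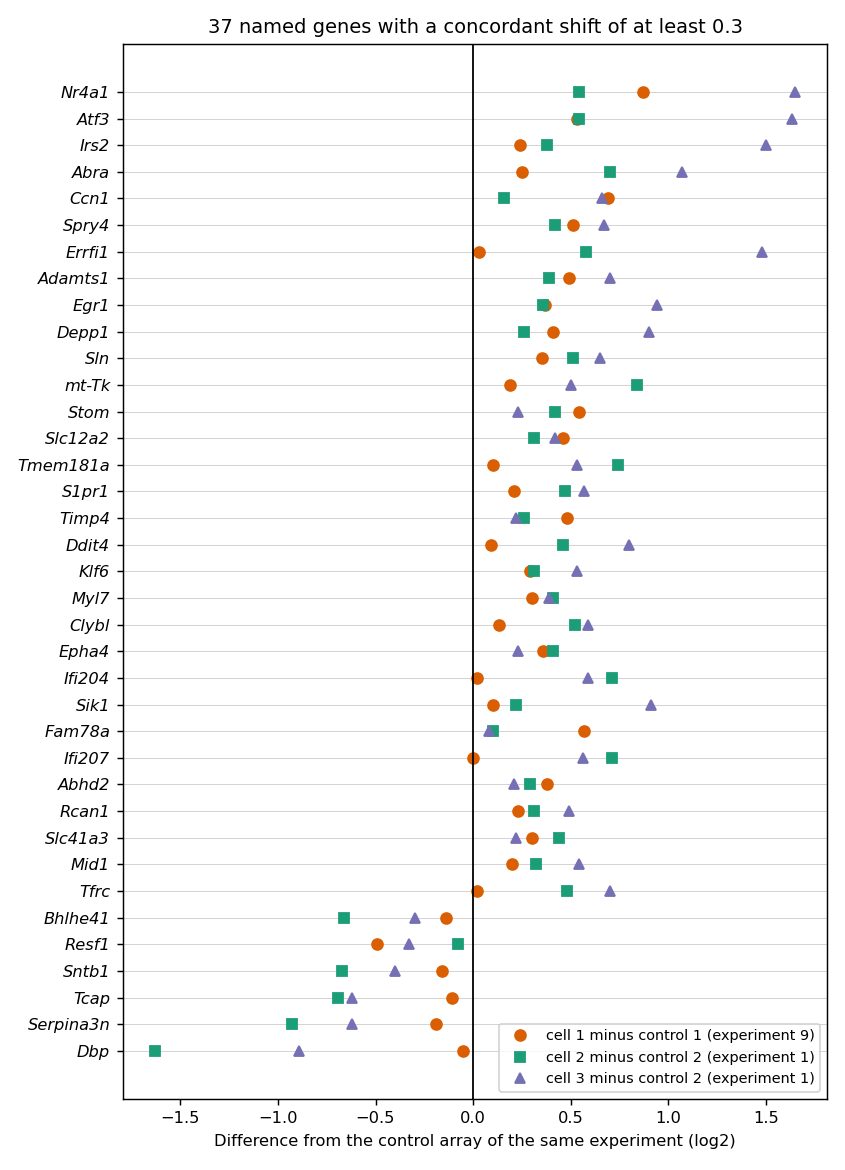
Difference of each cell array from the control array of its own experiment on the log2 scale (horizontal axis) for the 37 named genes with a concordant shift (vertical axis). Cell arrays 2 and 3 share control array 2, and for Nr4a1, Atf3, Irs2 and Errfi1 the gap of cell array 3 is 1.48 to 1.65 while that of cell array 1 is 0.03 to 0.87.

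The lower side had 6 named genes, and in 5 of them experiment 1 carried most of the gap. Dbp, a clock-driven transcription factor, read 9.11 and 9.06 on control array 1 and cell array 1, and 8.91 on control array 2 against 7.27 and 8.02 on cell arrays 2 and 3. Every other array lay between 8.85 and 9.26, so cell arrays 2 and 3 stood alone. The fitted difference was −0.78 ± 0.37 (limma adjusted p = 0.682), −0.47 without cell array 2 and −0.41 without control array 2. Bhlhe41, a repressor of clock genes, read 7.90 and 7.79 on the controls and 7.76, 7.13 and 7.49 on the cell arrays. Tcap, the telethonin that caps titin at the Z-disc, read 10.77 and 10.54 on the controls, 10.66 on cell array 1 and 9.86 and 9.93 on cell arrays 2 and 3, and the remaining arrays lay between 10.32 and 10.58. Serpina3n, a protease inhibitor of the acute phase, read 8.06 against 7.87 in experiment 9 and 9.37 against 8.45 and 8.75 in experiment 1. Control array 2 was its highest array, and without it the difference of −0.49 ± 0.22 was −0.09. Sntb1, a syntrophin of the dystrophin complex, read 7.55 and 7.80 on the controls and 7.40, 7.13 and 7.40 on the cell arrays. Resf1, a regulator of retroelement silencing, was led by experiment 9 instead, with 8.23 against 7.73 there and 8.22 against 8.14 and 7.90 in experiment 1.

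Clock genes lay mostly below control in the fit, led by cell arrays 2 and 3. Of 10 bright clock genes 8 had a fitted difference below 0, with a median of −0.275, against 0.020 for all bright genes. The median gap was 0.017 on cell array 1, −0.658 on cell array 2 and −0.137 on cell array 3. Both cell arrays of experiment 1 lay below their control for 5 of the 10, Dbp, Tef, Nr1d1, Nr1d2 and Bhlhe41, beside 16.4% of all bright genes. Tef, a relative of Dbp, read 7.48 and 7.50 in experiment 9 and 7.27 against 6.56 and 6.90 in experiment 1. Nr1d1, the receptor Rev-erb alpha that represses Bmal1, read 8.91 against 9.32 in experiment 9 and 9.54 against 8.52 and 8.77 in experiment 1, and Nr1d2, its relative Rev-erb beta, 9.41 against 9.43 and 9.19 against 8.53 and 8.78. Per2 was split, at 7.30 on control array 2 against 6.58 and 7.64. Clock was the other way round, at 8.72 against 8.78 and 8.80 against 9.16 and 9.09. The gene for its partner Bmal1, Arntl, was not bright, but read 5.47 and 5.77 in experiment 9 and 6.01 against 7.56 and 7.13 in experiment 1. Vesicle arrays 2 and 3 of the same experiment lay near control array 2, at 6.25 and 6.16 for Arntl and 8.93 and 8.90 for Dbp. Without cell array 2 the median of the list was −0.103 and without control array 2 it was −0.140. The labels give no hour of collection for any heart.

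The immediate early list held 14 bright genes of 27 measured. A fitted difference above 0 was found for 13 of them, with a median of 0.330, beside 66.5% of all bright genes and their median of 0.020. On all 3 cell arrays 7 lay above control and 0 below it, beside 15.8% and 6.21% of all bright genes. Cell array 3 was the highest of the 9 arrays for all 14. Control array 1 or the sham array was the lowest for 11 of them. The share of all bright genes with either pattern was not counted. Over all bright genes, cell array 3 also had the widest median gap, 0.045 against 0.000 and 0.011 on cell arrays 1 and 2. The median gap of the list was 0.127 on cell array 1, 0.143 on cell array 2 and 0.620 on cell array 3. Without cell array 3 the list had 10 genes above 0 and 4 below, with a median of 0.136. In that fit 3863 of the 6667 bright genes lay above 0, with a median of 0.011. Jun, a partner of Fos in the factor AP-1, read 8.08 and 7.66 on the controls and 8.03, 7.98 and 8.69 on the cell arrays. Fos itself was not bright, at 6.11 and 6.51 on the controls, 6.59 and 6.70 on cell arrays 1 and 2 and 8.14 on cell array 3. Ier3 was the member below 0, at −0.01 ± 0.24. The ERK feedback list had 7 of 8 bright genes above 0, with a median of 0.102, and its members Spry1, Spry2 and Spry4 lay above control on all 3 cell arrays.

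In the chaperone lists cell array 3 had the widest median gap. The counts below stand beside 66.5% of all bright genes above 0, with a median of 0.020. The list of endoplasmic reticulum stress and secretion had 11 of 12 bright genes above 0 (median 0.083). Both cell arrays of experiment 1 lay above their control for 11 of the 12, beside 41.9% of all bright genes, while cell array 1 lay above its control for 2. Hspa5, the chaperone BiP, read 9.47 and 9.48 in experiment 9 and 9.37 against 9.59 and 9.83 in experiment 1. The median gap was 0.097 on cell array 2 and 0.233 on cell array 3. Without cell array 3, 10 of the 12 were above 0 (median 0.028), and without control array 2, 5 of the 12 (−0.011). The heat shock list had 11 of 14 above 0 (median 0.062), but 5 of 14 and a median of −0.036 without cell array 3. Without that array 3863 of the 6667 bright genes were above 0. In the hypoxia list 15 of 18 were above 0 (median 0.069), or 10 of 18 and 0.027 without cell array 3. Its member Vegfa, the vascular growth factor, was even in experiment 9, at 9.80 and 9.79, and read 9.72 against 10.08 and 10.08 in experiment 1.

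Genes of the muscle cell stood close to control. Across all bright genes, 66.5% had a fitted difference above 0, with a median of 0.020. Of 19 bright heart muscle genes 11 were above 0 and 8 below, with a median of 0.011, and in the sarcomere list 11 of 24 were above 0, with a median of −0.015. With the sham array as a control these medians were 0.022 and 0.012. Calcium handling genes had 14 of 17 above 0, with a median of 0.042 and median gaps of 0.041, 0.045 and 0.084 on cell arrays 1, 2 and 3; without control array 2 the median was 0.007, and after quantile normalization 0.012. Atp2a2, the calcium pump of the sarcoplasmic reticulum, read 12.79 and 12.74 on the controls and 12.84, 12.78 and 12.82 on the cell arrays. Ryr2, the calcium release channel, read 11.35 and 11.29 on the controls and 11.45, 11.35 and 11.41 on the cell arrays. The wide gap of the list belonged to Sln, sarcolipin, an inhibitor of that pump found mainly in the atria. It read 6.81 on control array 1 and 7.15 on cell array 1, and 8.08 on control array 2 against 8.59 and 8.74 on cell arrays 2 and 3. Myl7, the atrial myosin light chain, had the same order, with 7.31 and 7.61 in experiment 9 and 8.55, 8.96 and 8.93 in experiment 1. For both genes the control arrays of the 2 experiments lay further apart than cells and control within either. The other bright atrial genes did not follow as closely: Nppa, the atrial natriuretic peptide, read 12.97 and 12.93 in experiment 9 and 13.19 against 13.15 and 13.26, whereas Kcnj3, an atrial potassium channel subunit, read 8.45 and 8.58, and 8.13 against 8.50 and 8.53. The atrial list had 6 of 8 above 0 (median 0.050), and 4 of 8 without cell array 3 (−0.014). How much atrium each heart sample held was not tested.

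Energy metabolism had medians near the 0.020 of all bright genes, but not when the sham array was counted as a control. Of 33 oxidative phosphorylation genes 24 were above 0, with a median of 0.027, and of 25 fatty acid oxidation genes 18, with a median of 0.022. The share of all bright genes above 0 was 66.5%. Both medians turned below 0 after quantile normalization, at −0.005 and −0.004. The citric acid cycle had 11 of 18 above 0 (median 0.029, or −0.006 after quantile normalization). With the sham array as a control the lists had 31 of 33, 24 of 25 and 18 of 18 above 0, with medians of 0.055, 0.068 and 0.054, against 0.021 for all bright genes.

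Markers of other cells gave no common direction. Of all bright genes 66.5% had a fitted difference above 0, with a median of 0.020, or of 0.005 without control array 2. Their share above 0 without control array 2 was not counted. Smooth muscle and pericyte genes had 11 of 12 above 0 (median 0.054), with a median gap of −0.067 on cell array 1 and of 0.099 and 0.191 on cell arrays 2 and 3, and 5 of 12 without cell array 3. Endothelial genes had 15 of 17 above 0 (median 0.042), with median gaps of −0.043, 0.057 and 0.099; without control array 2 there were 7 of 17. Fibroblast genes had 11 of 18 above 0 (median 0.017, −0.002 after quantile normalization and −0.025 with the sham array as a control). Activated fibroblast and scar genes had 3 of 11 above 0 (median −0.029, 0.001 after centring), 9 of 11 without control array 2, and 1 of 11 with the sham array counted as a control (−0.184). Postn, the scar protein periostin, read 8.92 and 8.97 in experiment 9 and 9.52 against 9.20 and 9.47 in experiment 1. The 4 bright macrophage genes had a median of −0.065, and Lyz2, lysozyme, read 9.36 against 9.24, and 10.17 against 9.90 and 9.70. Markers of cardiac progenitors gave 5 of 8 above 0, with a median of 0.055 and median gaps of −0.032, 0.013 and 0.158. Of 12 pluripotency genes only Klf4, which is also on the immediate early list, was bright, and Nanog stood at 4.18 to 4.34 on the 5 arrays.

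**Figure D5:**
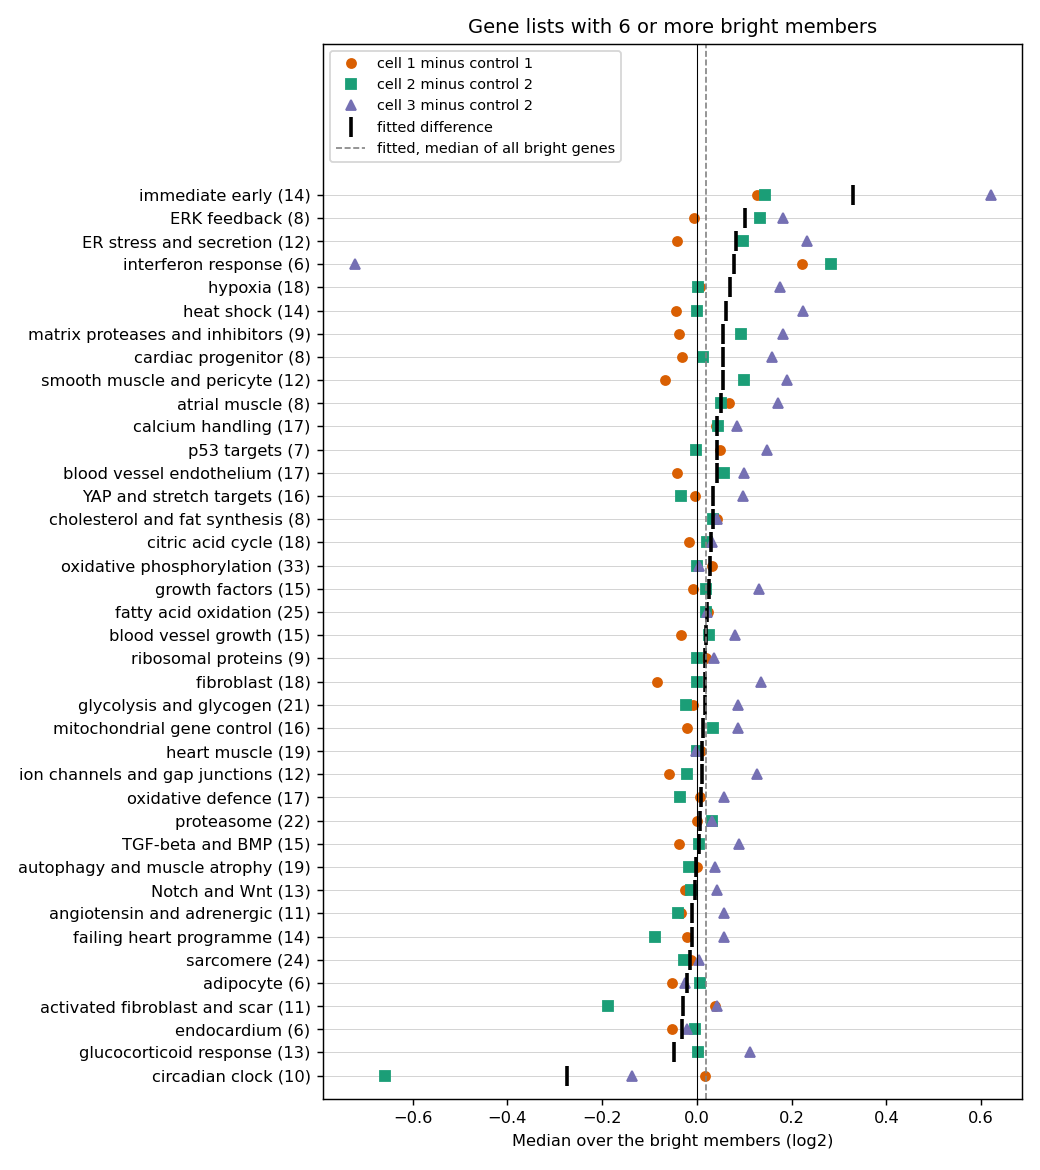
Median over the bright members (horizontal axis, log2) of the gaps of cell arrays 1, 2 and 3 from their own control and of the fitted difference, for the 39 gene lists with at least 6 bright members (number in brackets). Cell array 3 had the highest of the 3 median gaps in 30 of the 39 lists, and all 3 gaps were above 0 in 8 lists and below 0 in 1.

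Some bright genes stood out in a single experiment. In experiment 9 the widest named gaps on the higher side were 1.47 for Igtp and 1.27 for Iigp1, interferon-induced GTPases that defend cells against parasites. Igtp read 7.00 on control array 1 and 8.46 on cell array 1, then 8.09 on control array 2 and 9.06 and 7.10 on cell arrays 2 and 3, so the cell arrays of experiment 1 lay on both sides of their control. Iigp1 did the same, at 7.05 against 8.31 and at 8.17 against 8.58 and 6.88. The interferon response list, with 6 bright genes of 29 measured, was split in the same way: its median gap was 0.222 on cell array 1, 0.282 on cell array 2 and −0.722 on cell array 3, with 3 fitted differences above 0 and 3 below. On the lower side Cwc22, a splicing factor, was 0.89 below control in experiment 9 and 0.00 and 0.58 below in experiment 1, and Sox18, an endothelial transcription factor, read 8.60 against 8.04 in experiment 9 and 8.41 against 8.38 and 8.48 in experiment 1. Zbtb16, a zinc finger repressor that answers glucocorticoids, read 8.31 against 7.70, and 8.31 against 7.64 and 8.32.

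In experiment 1 Erdr1 lay 0.79 and 1.29 above control, while in experiment 9 cell array 1 was 0.03 below. Lgals9, galectin 9, read 8.28 against 9.03 and 8.96 in experiment 1 and 8.72 against 8.47 in experiment 9. Mt2, a metallothionein that binds zinc, read 11.63 against 10.69 and 10.97 in experiment 1 and 11.32 against 11.37 in experiment 9. Prune2 read 8.20 against 7.46 and 7.37 in experiment 1 and 7.81 against 7.95 in experiment 9. Csprs, a multicopy gene, had wide gaps of opposite sign in the experiments. It read 8.90 against 7.02 in experiment 9 and 5.78 against 9.11 and 8.31 in experiment 1, with vesicle arrays from 6.94 to 8.57. Copies that share probes cannot be told apart on the array, so its level counts as uncertain.

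Apart from Spry4 and Stom, described above, the named bright genes with the lowest unadjusted p had fitted differences under 0.3. They were ranked only among genes with all 3 cell arrays on the same side of their own control, so that agreement was required. The lowest p of any bright gene, 0.00013 in limma without adjustment, belonged to the gene model Gm12699 (0.22 ± 0.021). Me1, the cytosolic malic enzyme that supplies NADPH, read 9.38 and 9.16 on the controls and 9.55, 9.35 and 9.32 on the cell arrays, a difference of 0.17 ± 0.024 (limma unadjusted p = 0.00082, adjusted p = 0.682). Nfkbia, the inhibitor of NF-kappaB, read 8.19 and 8.26 against 8.38, 8.40 and 8.43, a difference of 0.17 ± 0.025. The sham array lay above the cell range for Nfkbia, at 8.53, and within it for Me1, at 9.51. Cd55, which protects cells from complement, read 7.97 and 7.91 on the controls and 8.16 on each cell array, and 8.18 on the sham array. Igfbp5, which binds insulin-like growth factors, read 8.60 and 8.59 against 8.74, 8.89 and 8.95, with 8.98 on the sham array. For Nfkbia, Cd55 and Igfbp5 the control arrays were the lowest of the 9 arrays, and for Me1 cell arrays 2 and 3 lay below control array 1. Sema6a, a semaphorin, Ndufaf4, an assembly factor of respiratory complex I, Mpp6, Ube2b, Dcaf6 and Kbtbd2 lay between 0.08 and 0.17 above control, with smaller gaps than the 0.3 used above.

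On the lower side the same rule gave Eva1b (−0.12 ± 0.016), Srsf2, a splicing factor (−0.10 ± 0.017), P3h4 of collagen modification (−0.09 ± 0.017), Mrps16 of the mitochondrial ribosome (−0.07 ± 0.015) and Bloc1s3 (−0.17 ± 0.035). Cish, a feedback inhibitor of cytokine signalling through Stat5, had wider gaps, at 7.54 and 7.62 on the controls and 7.25, 7.37 and 7.38 on the cell arrays, but the sham array at 7.37 and the vesicle arrays at 7.37, 7.20 and 7.33 lay with the cell arrays. Eva1b and Kbtbd2 were among the genes called without control array 1.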

How the data were processed

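Expression in whole frozen hearts was measured on Affymetrix whole-transcript arrays after Trizol extraction and biotin labelling, per the labels' protocols. The submitters' processing notes name Partek without a role. The authors deposited 1 value per probe set and array. These deposited values, 1.55 to 14.17, were read as log2 from their range; no source used here states the log base, summary or normalization. Of 80202 probe sets 30604 carry 1 gene symbol; for the 355 genes with several, the probe set with the highest mean was kept, which left 30142 genes. Identical values on 3 or more arrays occur in 61.1% of genes (41.4% of bright ones), which narrows their spread. A table has no depth, and the number of arrays limits precision.

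Differences were fitted with limma 3.58.1 (R 4.3.3), using lmFit and eBayes, a term for each treatment plus a fixed block for the experiment, on 8 arrays (4 residual degrees of freedom, sham left out). Tests were two-sided, adjusted by Benjamini-Hochberg over all genes; the script was tested on simulated data. The difference between experiments was tested as an interaction (2 residual degrees of freedom, which come only from the cell and vesicle arrays of experiment 1). Gaps set each cell array against the control array of its experiment. Lists are described by counts and medians, with no test. Named were, per direction, up to 12 bright genes of lowest unadjusted p, 10 of largest smallest gap, 6 of largest difference per experiment, up to 4 of lowest p per list, and heart muscle and sex-linked genes as checks; other concordant genes, Fos, Arntl and further list members were picked after their values were seen. Alternatives changed normalization, filters, moderation, block, probe sets, control group and arrays. The members, lists and rules were chosen with earlier results of these data known. Sequences come from RefSeq tables of GRCm38.p6, matched by symbol.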

Additional observations from a re-analysis of the deposited data

Results flagged for a closer look

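Csprs had a gap of −1.88 to its control in experiment 9 and gaps of 3.33 and 2.53 on the cell arrays of experiment 1, so the difference in experiment 9 minus that in experiment 1 was −4.81. The gene models Gm15433 (−4.98) and Gm6505 (−2.65) were split in the same direction. All 3 stood out because the 1 cell array of experiment 9 lay at least 0.3 to one side of its control. Both cell arrays of experiment 1 lay at least as far to the other side of theirs. Each experiment has 1 control array, so this split is not replicated. For Csprs the controls themselves read 8.90 and 5.78. Limma's interaction gave unadjusted p of 0.0561, 0.0767 and 0.0296 for them and adjusted p of 0.281, 0.334 and 0.203. Nr1d1 (1.30) and Klhl38 (0.92) were split the other way round, higher in experiment 9 and lower in experiment 1, with limma adjusted p of 0.153 and 0.183 for the interaction. Klhl38 read 8.23 on control array 1 against 8.59 on cell array 1, and 8.06 on control array 2 against 7.56 and 7.44. The median gap of the smooth muscle and pericyte list was −0.067 on cell array 1 and 0.099 and 0.191 on cell arrays 2 and 3; this difference between the experiments was not tested.

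Transcript clusters outside the named genes were counted by the same rule, with no test. Of 2483 bright transcript clusters that have no name in the table used, 91 (3.66%) had a concordant shift on the higher side and 6 (0.242%) on the lower side, beside 0.525% and 0.21% of the bright genes with a name. No group had 4 or more arrays, so no array was tested as an outlier.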

How the results depend on the processing

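Replicate numbers were given in accession order and pair nothing, so the experiment served as the block. Cell and control arrays share only 2 VTS numbers. With the VTS number as a replicate block, added after seeing the data, limma called 0 genes (smallest adjusted p 0.798), and 491 genes on the higher and 1002 on the lower side had an unadjusted p under 0.05. With no replicate block (experiment left out of the model) limma called 0 genes, smallest adjusted p 0.0975, and with the experiment as a random block 0 (0.0775). The count of called genes was 1 with the sham array counted as a control (lower, adjusted p = 0.0467), 0 to 901 when leaving out each array, 901 being without control array 1, and 0 under the other alternatives run. The interaction called 2914 genes by least squares with no moderation, 2 when genes with the same value on 3 or more arrays were also left out (11724 tested; added after seeing the data), and 0 otherwise.

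Counts of bright genes with a concordant shift, 35 higher and 14 lower, became 67 and 26 among all genes above the median of gene means, 9 and 9 with brightness set by the 99th percentile of the negative controls, 74 and 27 at a size of 0.2, 9 and 8 at 0.5, and 24 lower with the sham array pooled. Leaving out each array gave 43 to 198 higher and 19 to 46 lower, since fewer requirements must then be met. Without control array 2 only experiment 9 is left, so the 198 is its count of 1 array against 1 array. Experiment 9, with 198 higher and 35 lower, became 325 and 91 above the median of gene means, 92 and 13 at the 99th percentile, 371 and 116 at 0.2, 49 and 15 at 0.5, and 78 lower with sham pooled. Experiment 1, with 66 and 24, became 126 and 60, 23 and 5, 192 and 57, and 18 and 9 under the first 4 of these. The remaining alternatives stayed within 1.5 times. All 64 fitted genes kept their sign in 12 alternatives each. They had been chosen with all 3 cell arrays on the same side of their own control. That choice favours a kept sign, so this tests nothing. Of 504 list medians under alternatives, 59 moved by more than the spread of the cell arrays. With 2 control arrays, 1 per experiment, treatment and animal cannot be told apart within an experiment, and bright genes near 7.22 lie close to the negative controls. Leaving out cell array 3 was also chosen after seeing the data for the lists and concordant counts.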
